A study of Mus musculus with 3 samples.

Results

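Among oligodendrocyte-like cells of a mouse brain tumour model, cells holding messenger RNA of the milk proteins beta-casein and kappa-casein (Csn2 and Csn3) were compared with oligodendrocyte-like cells holding none. Oligodendrocyte-like cells were barcodes with at least 500 genes, at most 20% mitochondrial UMIs (unique molecular identifiers, each standing for 1 captured transcript), at least 10 UMIs per 10000 of Mog, Mag, Mobp, Mal, Ermn and Opalin together, and under 15 per 10000 of the myeloid genes C1qa, C1qb, C1qc, Tyrobp, Fcer1g and Ctss. Casein-positive cells held at least 3 raw UMIs of Csn2 and Csn3 together, and casein-zero cells held 0. By these rules 69 casein-positive and 862 casein-zero cells were found among 9286 cells that passed the filters, of 9642 barcodes in all.

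The series holds 3 tumours, numbered 1, 2 and 4, with 1 library each, taken at postnatal days 150, 106 and 149. Every tumour carried H3f3aK27M, PdgfraD842V and Trp53R270H, introduced by electroporation of the brain shortly after birth in mice heterozygous for the reporter Gt(ROSA)26Sortm4(ACTB-tdTomato,-EGFP) on a B6.129(Cg) background. GFP-positive cells were sorted and profiled with the 10x Genomics Chromium 3' chemistry, version 2. No tumour-free brain was compared here, so both classes of cells share the alleles, the strain and the sort, and the promoter that drives the transgenes is not named in the labels.

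Caseins are the main proteins of milk. In mammary epithelium their genes lie in a cluster and are switched on during late pregnancy by prolactin, through the kinase JAK2 and the transcription factor STAT5, together with glucocorticoids. They belong to the secretory calcium-binding phosphoprotein family, which also includes osteopontin (Spp1) and the enamel and dentin matrix proteins and which is related to the matrix protein Sparc. Oligodendrocytes are the myelinating glia of the brain and are not a classical site of casein synthesis.

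Casein-positive cells came almost wholly from tumour 2, which held 68 of them. Tumour 4 held 1 and tumour 1 held 0 of 32 oligodendrocyte-like cells. A limit of 3 counts over those 32 cells allows a share of up to 9.38%, and the upper bound of the 95% exact binomial interval is 10.9%. In tumour 2, casein-positive cells made up 13.1% of the 521 oligodendrocyte-like cells (95% exact binomial interval 10.3 to 16.3%), and in tumour 4 they made up 0.215% of 465 (0.00544 to 1.19%). All intervals here and below cover counting error only. The cells that passed the gate differed in myelin RNA between tumours 2 and 4, as given below. Because only tumour 2 held at least 10 cells of each class, the comparison rests on 1 library, no test across tumours was possible, and all ratios describe the cells of that library without a replicate check.

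The casein counts that chose the cells ran from 3 to 554 UMIs, with a median of 15, and 44 of the 68 cells in tumour 2 held 10 or more. Just inside the limit were 4 cells with 3 UMIs, and just outside it were 17 cells with 2. At the oligodendrocyte gate, 6 casein-positive cells lay between 10 and 12 per 10000, and 3 cells with as many casein UMIs fell short of it at 8 to 10. At the myeloid gate, 13 casein-positive cells lay at 10 to under 15 per 10000. A further 3 cells had at least 3 casein UMIs and passed the oligodendrocyte gate but lay at 15 to under 20 myeloid UMIs. Casein UMIs were also counted in microglia-like cells. In tumour 2, 3.87% of 542 microglia-like cells (at least 15 myeloid UMIs per 10000) reached 3 casein UMIs (2.41 to 5.86%) at a median of 7232 UMIs per cell. Of these 21 cells, 14 also reached the oligodendrocyte gate. A further 82 of the 542 held 1 or 2. Among the 521 oligodendrocyte-like cells, at a median of 10398 UMIs, 80 held 1 or 2. The share with 1 or 2 casein UMIs was thus close in both kinds of cells, whose depths differ. Whether free RNA, doublets or the cells' own RNA gave the UMIs in microglia-like cells was not tested.

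RNA of a myelin gene outside the gate was counted in nearly all cells of tumour 2, microglia-like cells included, so its presence does not mark the class. At equal depth, obtained by thinning every cell to 3000 UMIs after Csn2 and Csn3 had been taken out, Mbp (myelin basic protein) was found in 100.0% of the 66 casein-positive cells and in 100.0% of the 367 casein-zero cells left, and also in 426 of 432 casein-zero microglia-like cells. Its level was 12955 CPM (UMIs per 1000000 at equal depth) in casein-positive and 14490 CPM in casein-zero oligodendrocyte-like cells, against 2795 CPM in those microglia-like cells. In the 457 casein-zero oligodendrocyte-like cells of tumour 4, Mbp stood at 3751 CPM. Cells that passed the same gate thus differed in Mbp level between tumours 2 and 4. The genes of the gate chose both classes, so their values are a description. Their summed level had a median of 38.4 per 10000 UMIs in casein-positive cells, with quartiles of 25.02 and 53.5, and a median of 50.9 in casein-zero cells, with quartiles of 18.2 and 113. The casein-zero cells thus spread wider on both sides. All 6 gate genes had negative log2 ratios, from -2.05 for Opalin to -0.21 for Ermn. Opalin stood at 65.7 CPM in casein-positive cells and 302 CPM in casein-zero cells, and Ermn at 369 CPM in casein-positive and 429 CPM in casein-zero cells. The 10 microglial and macrophage genes summed to 293 CPM in casein-positive and 292 CPM in casein-zero cells, levels that the myeloid gate caps in both classes.

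The classes were alike in depth and differed in mitochondrial share. Casein-positive cells had a median of 10788 raw UMIs and casein-zero cells 9876. Mitochondrial UMIs made up a median of 10.2% in casein-positive cells, with quartiles of 6.06 and 14.5%, against 6.02% in casein-zero cells, with quartiles of 4.30 and 9.54%. The part of the mitochondrial share in the results was not tested, and values of the main lists after weighting casein-zero cells to the mitochondrial distribution of casein-positive cells are given beside the unweighted ones. No doublet caller was run and no cell was removed as a doublet.

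Of 3665 genes measured (at least 20 UMIs over both classes and at least 50 CPM in one of them), 231 were at least 2-fold higher in casein-positive cells, 6.3% of those measured, and 209 were at least 2-fold lower, 5.7%. Ratios were formed after adding 10 CPM to each level. The median log2 ratio of all genes was -0.08. These counts have no error rate attached, and a second random thinning gave 216 higher and 216 lower genes, of which 123 higher and 85 lower genes were the same as in the first.

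**Figure D1:**
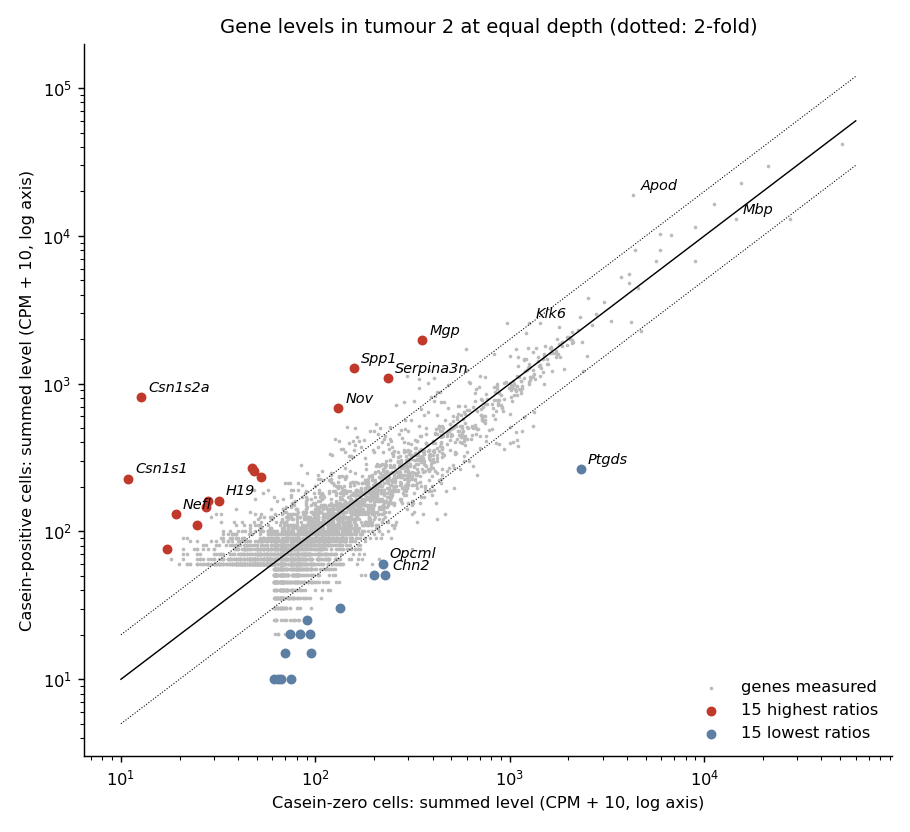
Summed level of each of 3665 genes in casein-positive cells (y axis, CPM + 10, log scale) against casein-zero cells (x axis, same scale) of tumour 2, at 3000 UMIs per cell; red and blue points are the 15 genes with the highest and lowest ratios. Csn1s2a, Csn1s1, Spp1, Mgp and Apod lie far above the 2-fold line, and Ptgds lies far below it.

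The largest ratios belonged to the other 2 expressed genes of the casein cluster. Csn1s2a, an alpha-S2-casein gene, had 798 CPM in casein-positive cells (678 to 933) and 2.72 CPM in casein-zero cells (0.562 to 7.96), a log2 ratio of 5.99. Its UMIs were found in 10 of the 66 casein-positive cells and in 3 of the 367 casein-zero cells. A single cell held 60.1% of the Csn1s2a UMIs in the casein-positive class, and without it the level was 323 CPM. Csn1s1, which encodes alpha-S1-casein, had 217 CPM in casein-positive cells (157 to 293) and 0.908 CPM in casein-zero cells, a log2 ratio of 4.38, in 16.7% of casein-positive and 0.272% of casein-zero cells. At this depth a minority of casein-positive cells held UMIs of either gene, and casein-zero microglia-like cells showed 9 UMIs of the pair in 432 cells. In cells with at most 10% mitochondrial UMIs the log2 ratios were lower, 3.79 for Csn1s2a and 2.67 for Csn1s1.

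The cluster was read out gene by gene from the raw counts of all 68 casein-positive and 373 casein-zero cells. Csn1s1 (chr5:87666208-87682578, plus strand, mm10) had 110 UMIs in 16 casein-positive cells and 7 UMIs in 7 casein-zero cells. Csn1s2a (chr5:87774567-87788797, plus strand) had 365 UMIs in 13 casein-positive cells and 14 UMIs in 13 casein-zero cells. The neighbouring Csn1s2b, which lies at chr5:87808082-87824426 between Csn1s2a and Odam, had no UMI in either class. Odam, Prr27, Cabs1, Smr3a, 2310003L06Rik, Gm28434 and the sulfotransferase genes Sult1d1 and Sult1e1, which lie within 150 kb of the genes of the rule, had none either. Within this window, UMIs of the classes compared came from casein genes alone at this depth.

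The promoters of Csn1s1 and Csn1s2a are shown because their genes had the largest ratios. They are the 250 bases before and 50 after each annotated start, from RefSeq (GRCm38.p6), 5' to 3' on the gene's strand, and capitals mark matches to TTCNNNGAA, the core that STAT proteins bind, searched on both strands.
Csn1s1, chr5:87665958-87666257 (plus strand): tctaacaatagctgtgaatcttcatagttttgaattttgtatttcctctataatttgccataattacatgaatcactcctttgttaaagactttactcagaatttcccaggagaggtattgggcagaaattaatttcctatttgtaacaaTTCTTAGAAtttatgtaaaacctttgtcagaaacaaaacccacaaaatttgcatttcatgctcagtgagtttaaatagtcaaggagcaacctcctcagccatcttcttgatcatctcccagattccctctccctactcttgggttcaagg
Csn1s2a, chr5:87774200-87774499 (plus strand): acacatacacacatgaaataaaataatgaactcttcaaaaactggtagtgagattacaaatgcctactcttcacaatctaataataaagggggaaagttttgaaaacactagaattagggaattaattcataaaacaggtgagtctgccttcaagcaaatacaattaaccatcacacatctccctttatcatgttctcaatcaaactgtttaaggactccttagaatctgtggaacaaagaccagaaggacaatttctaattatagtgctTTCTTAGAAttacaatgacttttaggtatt
Each of the 2 promoters held 1 match, and 8.30% of 32851 promoters of the same length held at least 1. The RefSeq start used for Csn1s2a lies upstream of the GENCODE gene start given above, which its window does not reach. A match is a description of the sequence only.

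Genes of the prolactin and STAT5 route were summed beside the caseins. The 19 genes of this list stood at 1444 CPM in casein-positive cells (1282 to 1622) and 794 CPM in casein-zero cells (742 to 848), a ratio of 1.82. The median log2 ratio of the 7 members that passed the filter was 0.57. Of the 7, 0 were lower and 2 were at least 2-fold higher, against 6.3% of all genes measured. These were Socs1, an inhibitor of JAK and STAT signalling, at 162 CPM in casein-positive and 50.9 CPM in casein-zero cells, and Cebpb, a transcription factor, at 323 CPM in casein-positive and 109 CPM in casein-zero cells. Socs3, another feedback inhibitor, had 409 CPM in casein-positive cells and 216 CPM in casein-zero cells, and Socs2, a STAT5 target, had 197 CPM in casein-positive and 147 CPM in casein-zero cells. Stat5a, below the filter with 11 UMIs in casein-positive and 8 UMIs in casein-zero cells, had 55.6 CPM in casein-positive cells (10.6% of cells) and 7.27 CPM in casein-zero cells (1.91%), while Stat5b had 10.1 CPM in casein-positive and 14.5 CPM in casein-zero cells. The receptor Prlr, prolactin itself and growth hormone had 0 UMIs in both classes. After weighting to the same mitochondrial share, the log2 ratio of this list was 0.48, against 0.86 without weighting. The 13 glucocorticoid-responsive genes summed to 2758 CPM in casein-positive cells and 2105 CPM in casein-zero cells. Of these, 7 passed the filter and 1 was higher, where 6.3% of all genes measured were. This was Errfi1, an inhibitor of epidermal growth factor receptor, at 121 CPM in casein-positive and 51.8 CPM in casein-zero cells.

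Other milk genes were not part of the pattern. Wap, Glycam1, Btn1a1, Lao1, Csn1s2b and Odam had no UMI at equal depth, and Lalba (alpha-lactalbumin) had 1 UMI in casein-positive and 3 UMIs in casein-zero cells. Of the 10 mammary and other epithelial genes, 8 had 0 UMIs in both classes, and the sum of the list, from Epcam and Cdh1, was 65.7 CPM in casein-positive cells and 58.1 CPM in casein-zero cells. The keratins Krt5, Krt8, Krt14, Krt18 and Krt19 had 0 UMIs in both classes. Pituitary hormone genes summed to 5.05 CPM in casein-positive cells and 15.4 CPM in casein-zero cells, from 1 UMI in casein-positive and 17 UMIs in casein-zero cells, and the sign of their log2 ratio turned when cells were thinned to 5000 UMIs (0.64).

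Spp1, Mgp and Nov, which encode secreted matrix proteins, were 3 of the 15 genes with the highest ratios. Spp1 (osteopontin), the relative of the caseins, had 1263 CPM in casein-positive cells (1111 to 1429) and 147 CPM in casein-zero cells (125 to 172). It was found in 42.4% of the casein-positive and 11.4% of the casein-zero cells, with up to 45 UMIs in a casein-positive cell and up to 49 in a casein-zero cell, so the ranges overlapped. Spp1 stood at 402 CPM in casein-zero microglia-like cells of the tumour, where 157 of 432 cells had a UMI. In cells with at most 10% mitochondrial UMIs the log2 ratio of Spp1 was 1.98, against 3.02 in all cells. Sparc, the related matrix protein on the same list, had 333 CPM in casein-positive cells and 132 CPM in casein-zero cells. Of the 13 genes of this family list, 2 passed the filter and both were higher, and 7 had 0 UMIs. Over all genes measured 6.3% were higher, and 2 members are too few to be read as a result about the list.

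Mgp (matrix Gla protein, an inhibitor of calcification) had 1955 CPM in casein-positive cells and 344 CPM in casein-zero cells, in 33 of 66 casein-positive and 94 of 367 casein-zero cells. Its log2 ratio of 2.47 was 1.66 after weighting to the same mitochondrial share. Nov (the matricellular protein CCN3) had 672 CPM in casein-positive and 121 CPM in casein-zero cells, in 47.0% of the casein-positive and 11.7% of the casein-zero cells, with log2 ratios of 2.38 unweighted and 1.42 weighted. Col1a2, a chain of type I collagen, had 121 CPM in casein-positive and 20.9 CPM in casein-zero cells. Over the 15 matrix and mesenchymal genes the sum was 4904 CPM in casein-positive cells and 2073 CPM in casein-zero cells, a ratio of 2.37, and 4 of the 8 genes measured were higher and 0 lower (Mgp, Vim, S100a10 and Col1a2), with a median log2 ratio of 0.95. Col1a2 passed the filter only through the casein-positive class. At weighted mitochondrial share the log2 ratio of the list was 0.76, against 1.24 unweighted. The 457 casein-zero oligodendrocyte-like cells of tumour 4, which had less Mbp than those of tumour 2, had 9861 CPM of the list, though only 7.29 CPM of Mgp.

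Serpina3n and Serping1, inhibitors of serine proteases and of complement C1, were higher with the matrix genes. Serpina3n had 1076 CPM in casein-positive cells and 225 CPM in casein-zero cells, in 63.6% of the casein-positive and 23.7% of the casein-zero cells. Serping1 had 101 CPM in casein-positive and 14.5 CPM in casein-zero cells. H19, an imprinted non-coding RNA, had 152 CPM in casein-positive cells (102 to 216) and 21.8 CPM in casein-zero cells (14.0 to 32.4). In the 457 casein-zero oligodendrocyte-like cells of tumour 4, H19 had 570 CPM. Slbp, which binds histone transcripts, had 258 CPM in casein-positive and 37.2 CPM in casein-zero cells. In the casein-positive class 76.5% of its UMIs came from a single cell, and without the top cell of each class its log2 ratio was 0.68.

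Apod, which encodes the lipid-binding apolipoprotein D of mature oligodendrocytes, was by level the most abundant of the genes that were at least 2-fold higher. It stood at 18904 CPM in casein-positive cells and 4309 CPM in casein-zero cells, a log2 ratio of 2.13. The casein-positive cells held 0 to 289 UMIs of it, with a median of 49, and the casein-zero cells 0 to 152, with a median of 5. Klk6, a serine protease of oligodendrocytes, had 2561 CPM in casein-positive and 1241 CPM in casein-zero cells and was found in 90.9% of casein-positive cells and 58.9% of casein-zero cells. Hapln2, a link protein of the nodal matrix, had 480 CPM in casein-positive and 280 CPM in casein-zero cells, and the iron carrier Trf had 5288 CPM in casein-positive and 3698 CPM in casein-zero cells. Hapln2 and Trf lie within 2-fold.

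Other genes of the same stage were lower. Ptgds, which encodes prostaglandin D2 synthase, had 253 CPM in casein-positive cells (187 to 333) and 2300 CPM in casein-zero cells (2211 to 2391), a log2 ratio of -3.14. It was found in 19.7% of casein-positive cells and 66.5% of casein-zero cells, with up to 17 UMIs in a casein-positive cell and up to 173 in a casein-zero cell. Qdpr, a reductase that recycles tetrahydrobiopterin, had 187 CPM in casein-positive and 506 CPM in casein-zero cells. Serpinb1a, a protease inhibitor, had 25.3 CPM in casein-positive and 63.6 CPM in casein-zero cells, and Gpr37, a receptor of myelinating cells, had 106 CPM in casein-positive and 224 CPM in casein-zero cells. Of the 17 late mature genes measured, 2 were higher and 4 were lower, against 6.3% and 5.7% of all genes measured. The median log2 ratio of the list was -0.36, and the sum of the list was 1.69-fold higher. Its sum and its median differ in sign. Apod made up 18904 of the 33768 CPM of the list in casein-positive cells and 4309 of the 19938 CPM in casein-zero cells.

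The same genes were counted at the same depth in the 432 casein-zero microglia-like cells, and the source of those UMIs was not tested. Apod was found in 271 of them, at 530 CPM. Ptgds was found in 98, at 202 CPM, which is close to its 253 CPM in casein-positive cells, and the 19.7% of casein-positive cells with a Ptgds UMI are not read as expression above it. Mgp was found in 56, Serpina3n in 51 and Nov in 12, at 58.6, 57.9 and 11.6 CPM. Ly6e was found in 367, at 874 CPM.

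**Figure D2:**
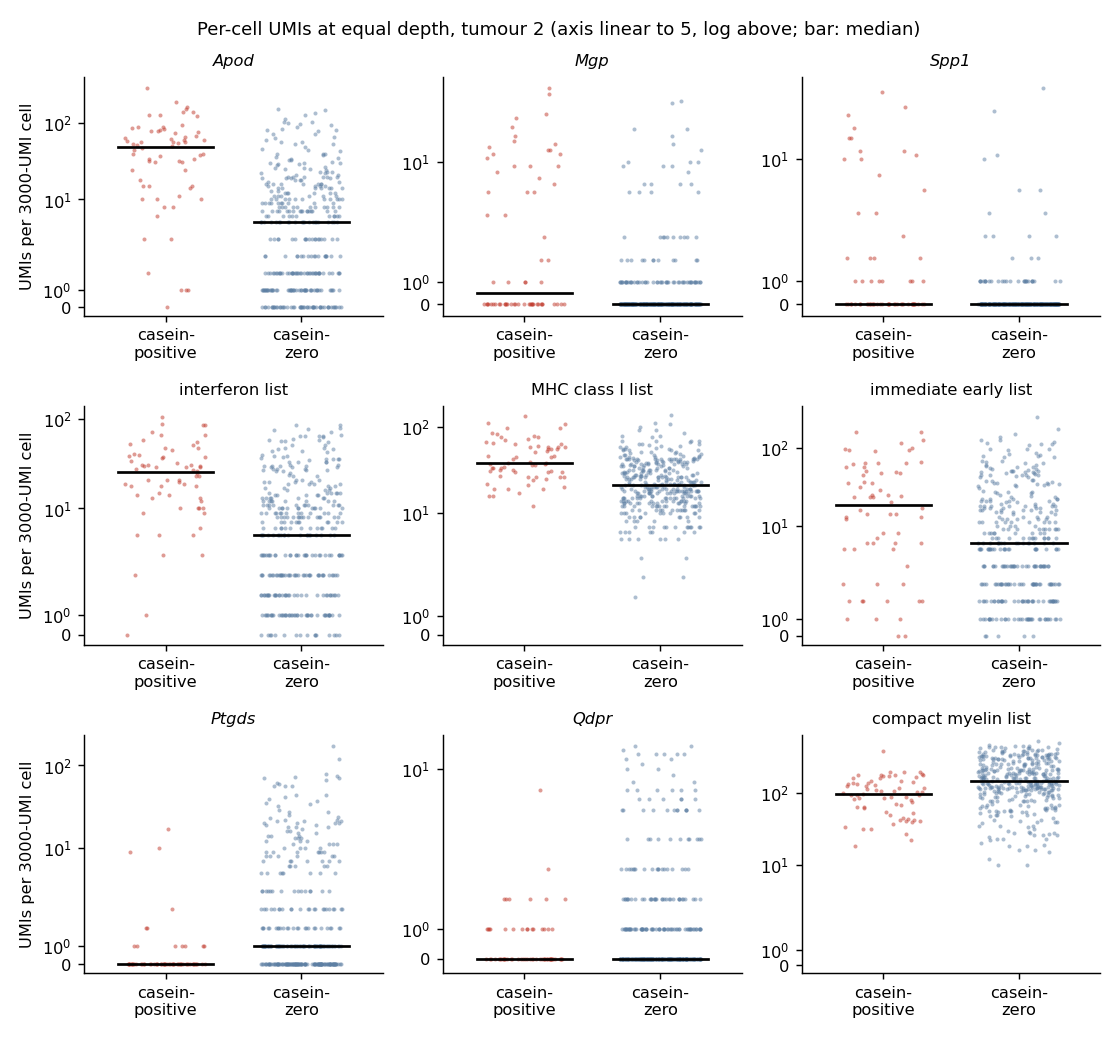
UMIs per cell at equal depth (y axis, linear to 5 and logarithmic above) in the 66 casein-positive and 367 casein-zero cells of tumour 2, 1 point per cell with a bar at the median. Casein-positive cells had medians of 49 for Apod and 25.5 for the interferon list, against 5 for each in casein-zero cells, and the ranges of the classes overlap in every panel.

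Compact myelin genes were lower in casein-positive cells. The list of 18 genes summed to 35677 CPM in casein-positive cells (34850 to 36519) and 59464 CPM in casein-zero cells (59010 to 59921), a ratio of 0.60, and 6 of 18 were at least 2-fold lower and 0 higher. Tspan2, a tetraspanin of myelin, had 121 CPM in casein-positive and 456 CPM in casein-zero cells, Fa2h, which hydroxylates myelin lipid chains, had 80.8 CPM in casein-positive and 234 CPM in casein-zero cells, and Ugt8a, which makes galactosylceramide, had 389 CPM in casein-positive and 843 CPM in casein-zero cells. Mbp was an exception, at 12955 CPM in casein-positive and 14490 CPM in casein-zero cells, a log2 ratio of -0.16. After weighting to the same mitochondrial share, the log2 ratio of the list was -0.46, against -0.74 unweighted. The median log2 ratio of the list was -0.82, against -0.08 over all genes. None of the gate genes is in this list, but the classes also differed in gate level. With casein-zero cells weighted to the gate levels of casein-positive cells, the log2 ratio of the list was -0.48, against -0.74. The same weighting gave 0.96 against 1.28 for the interferon list and 2.31 against 3.02 for Spp1. The late mature list went the other way, at 0.83 against 0.76. The part of the gate level in the results was not tested.

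Genes of committed and newly formed oligodendrocytes were also lower, at 1793 CPM in casein-positive and 2561 CPM in casein-zero cells. Of 13 measured members, 0 were at least 2-fold higher and 3 were at least 2-fold lower, against 5.7% of all genes measured. These were Bmp4, a growth factor of the bone morphogenetic family, at 15.2 CPM in casein-positive and 72.7 CPM in casein-zero cells, Tmem141 at 55.6 CPM in casein-positive and 163 CPM in casein-zero cells, and the transcription factor Tcf7l2, at 85.9 CPM in casein-positive and 209 CPM in casein-zero cells. The 13 progenitor genes summed to 1374 CPM in casein-positive and 1599 CPM in casein-zero cells. Of the 6 measured, 1 was higher and 1 lower, with a median log2 ratio of -0.53. Cspg5 (neuroglycan C) was higher, at 424 CPM in casein-positive and 153 CPM in casein-zero cells. Sox6 was lower, at 15.2 CPM in casein-positive and 60.9 CPM in casein-zero cells. These single members are not read as results about the list. The cycling genes summed to 374 CPM in casein-positive cells (293 to 469) and 437 CPM in casein-zero cells (399 to 478). The astrocyte list was at 399 CPM in casein-positive and 377 CPM in casein-zero cells.

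The genes with the lowest ratios after Ptgds had few UMIs. Chn2, a Rac GTPase-activating protein, had 40.4 CPM in casein-positive cells and 217 CPM in casein-zero cells, in 10.6% of the casein-positive and 36.0% of the casein-zero cells. Opcml, an adhesion molecule, had 50.5 CPM in casein-positive and 212 CPM in casein-zero cells, Dnm3, a dynamin, had 40.4 CPM in casein-positive and 189 CPM in casein-zero cells, and Mid1ip1, a regulator of lipid synthesis, had 20.2 CPM in casein-positive and 124 CPM in casein-zero cells. Slc30a9, Pon2, Ahi1 and Timm17b had 0 UMIs in casein-positive cells and 50.9 to 64.5 CPM in casein-zero cells. Of the 15 genes named for their low ratio, 10 were 2-fold lower in a second random thinning and 11 were without thinning. Ahi1, Timm17b, Chchd7 and Ccp110, along with Itih3, lost the 2-fold difference in the second thinning, with log2 ratios of -0.87, -0.34, -0.73, -0.99 and -0.68. Without thinning, the log2 ratios of Slc30a9, Ahi1, Timm17b and Chchd7 were -0.77, -0.60, -0.52 and -0.10.

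Interferon response genes were higher in casein-positive cells. The 19 genes summed to 9944 CPM in casein-positive cells (9510 to 10394) and 4098 CPM in casein-zero cells (3979 to 4219), a ratio of 2.43 (2.30 to 2.56). All 19 passed the filter, 15 were at least 2-fold higher and 0 lower, and the median log2 ratio was 1.15, against -0.08 over all genes. Casein-positive cells held a median of 25.5 of these UMIs and casein-zero cells a median of 5, and 87.9% of the casein-positive cells lay above the casein-zero median. Ifit2 and Ifit3 encode antiviral proteins induced by interferon. Ifit2 had 409 CPM in casein-positive and 116 CPM in casein-zero cells. Ifit3 had 798 CPM in casein-positive and 382 CPM in casein-zero cells. Ifitm3, a restriction factor of virus entry, had 1066 CPM in casein-positive and 331 CPM in casein-zero cells, in 74.2% of the casein-positive and 37.1% of the casein-zero cells. Irgm1, an immunity-related GTPase, had 924 CPM in casein-positive and 330 CPM in casein-zero cells, and Isg15, a ubiquitin-like modifier, had 1000 CPM in casein-positive and 370 CPM in casein-zero cells. Apol9a and Phf11d, outside the list, were among the highest ratios too. Apol9a had 247 CPM in casein-positive and 38.1 CPM in casein-zero cells. Phf11d had 222 CPM in casein-positive and 42.7 CPM in casein-zero cells. With a gate of at least 30 oligodendrocyte and under 5 myeloid UMIs per 10000 the log2 ratio of Apol9a was 0.32, against 2.42. Weighting to the same mitochondrial share gave a log2 ratio of 0.64 for the list, against 1.28 unweighted. In cells with at most 10% mitochondrial UMIs it was 1.28. Such levels were not particular to casein-positive oligodendrocyte-like cells. In tumour 4, the 457 casein-zero oligodendrocyte-like cells had 10202 CPM of the interferon list. Those cells had less myelin RNA, with 12386 CPM of the compact myelin list against 59464 CPM in casein-zero cells of tumour 2. In tumour 2, microglia-like cells with at least 3 casein UMIs had 8206 CPM, against 4465 CPM in those with 0. The remaining cells of tumour 2, in neither class, had 9333 CPM with at least 3 casein UMIs and 4609 CPM with 0.

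The antigen presentation genes of MHC class I were higher as well. The 11 genes summed to 15697 CPM in casein-positive cells and 8794 CPM in casein-zero cells, a ratio of 1.79 (1.71 to 1.86), and 4 of 11 were at least 2-fold higher and 0 lower, with a median log2 ratio of 0.86. These were Psmb8, a subunit of the immunoproteasome, at 737 CPM in casein-positive and 276 CPM in casein-zero cells, the peptide loading factor Tapbp at 182 CPM in casein-positive and 64.5 CPM in casein-zero cells, the peptide transporter Tap2 at 75.8 CPM in casein-positive and 27.2 CPM in casein-zero cells, and H2-T23 at 449 CPM in casein-positive and 199 CPM in casein-zero cells. Tap2 passed the filter only through the casein-positive class. B2m, the light chain of class I, was at 7955 CPM in casein-positive and 4368 CPM in casein-zero cells. The log2 ratio of the list was 0.70 after weighting to the same mitochondrial share, against 0.84 unweighted. Reads of near-identical relatives, as among the class I, Ifit, Gbp, Apol9 and Phf11 genes, cannot be assigned with certainty by counting at the 3' end.

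The promoters of Ifitm3 and Irgm1 are shown because they were the interferon genes with the highest ratios among those with a match to the core of the interferon-stimulated response element, written here as GAAA, any 2 bases and GAAA again, searched on both strands and marked in capitals. They were taken from RefSeq (GRCm38.p6) as above, on the gene's strand.
Ifitm3, chr7:141010695-141010994 (minus strand): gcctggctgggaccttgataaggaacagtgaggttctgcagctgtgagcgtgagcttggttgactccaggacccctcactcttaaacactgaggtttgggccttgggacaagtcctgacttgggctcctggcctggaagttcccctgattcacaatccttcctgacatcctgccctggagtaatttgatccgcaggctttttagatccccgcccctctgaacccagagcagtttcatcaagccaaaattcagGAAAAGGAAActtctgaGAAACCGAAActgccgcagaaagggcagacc
Irgm1, chr11:48871371-48871670 (minus strand): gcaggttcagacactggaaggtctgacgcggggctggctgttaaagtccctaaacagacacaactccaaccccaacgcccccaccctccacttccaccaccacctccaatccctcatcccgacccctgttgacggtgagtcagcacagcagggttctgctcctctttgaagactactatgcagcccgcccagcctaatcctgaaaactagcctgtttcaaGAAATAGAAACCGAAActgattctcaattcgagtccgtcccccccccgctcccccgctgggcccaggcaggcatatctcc
Promoters were found for 16 of the 19 list genes, and 11 of the 16 held at least 1 match, against 3.44% of all promoters of this length. A list gene counted if any of its promoters held a match, while the background was counted per promoter, so the shares differ in unit. In Irgm1 the 2 matches overlap.

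**Figure D3:**
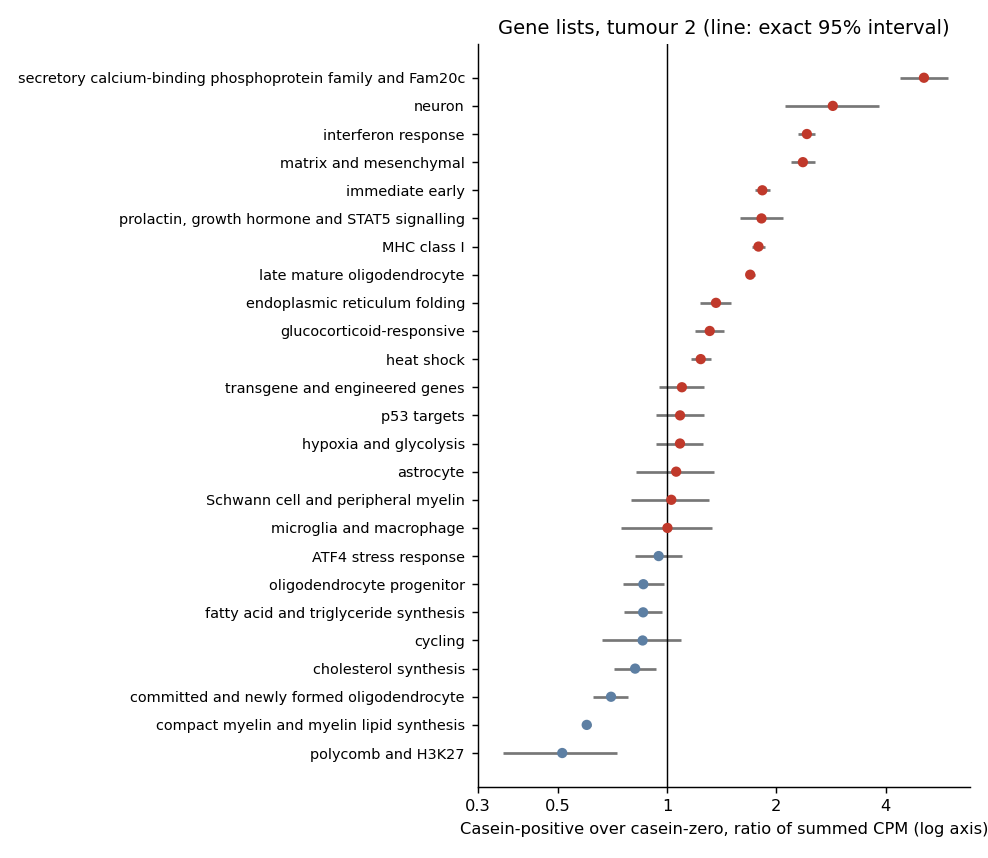
Ratio of summed CPM in casein-positive over casein-zero cells of tumour 2 (x axis, log scale) for each gene list with at least 100 UMIs, leaving out the milk protein list; dots are ratios and lines are exact 95% intervals that cover counting error only. The interferon list lies at 2.43 and the compact myelin list at 0.60.

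Immediate early genes, which respond to tissue dissociation as well as to stimulation, stood higher in sum. The 18 immediate early genes summed to 11242 CPM in casein-positive cells and 6146 CPM in casein-zero cells, and 6 of 16 measured were at least 2-fold higher and 0 lower, with a median log2 ratio of 0.92. Egr1, a transcription factor, had 1227 CPM in casein-positive and 595 CPM in casein-zero cells, and Fosb had 520 CPM in casein-positive and 195 CPM in casein-zero cells. The 10 heat shock genes summed to 5975 CPM in casein-positive cells and 4830 CPM in casein-zero cells, a ratio of 1.24, with 2 of 10 at least 2-fold higher, 0 lower and a median log2 ratio of 0.09. The 2 were Dnajb1 and Hspb1, of which Hspb1 passed the filter only through the casein-positive class. Dnajb1, a co-chaperone, had 1227 CPM in casein-positive and 375 CPM in casein-zero cells, and the small heat shock protein Hspb1 had 116 CPM in casein-positive and 41.8 CPM in casein-zero cells. The log2 ratio of the immediate early list was 0.46 after weighting to the same mitochondrial share, against 0.87 unweighted. Hspa5, the chaperone of the endoplasmic reticulum, had 818 CPM in casein-positive and 403 CPM in casein-zero cells. It was the only 1 of 11 genes of its list that was 2-fold higher, against 6.3% of all genes measured, and is not read as a result about the list. Fatty acid and cholesterol synthesis genes had ratios of 0.86 and 0.82, with 0 members called in either direction.

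Markers of other cell types were low but not equal. The 12 neuron genes summed to 359 CPM in casein-positive cells and 125 CPM in casein-zero cells. Nefl (neurofilament light chain) had 121 CPM in casein-positive and 9.08 CPM in casein-zero cells. Stmn2, a microtubule regulator of neurons, had 75.8 CPM in casein-positive and 12.7 CPM in casein-zero cells. Syt1 and Rbfox3 had 0 UMIs in both classes. Under a stricter gate (at least 30 oligodendrocyte and under 5 myeloid UMIs per 10000), which left 9 casein-positive and 108 casein-zero cells, the log2 ratios were -0.15 for the neuron list and -1.51 for Nefl.

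Among the other genes with high ratios, Pcp4, a regulator of calmodulin, had 136 CPM in casein-positive and 17.3 CPM in casein-zero cells. Its log2 ratio of 2.42 was 0.66 when cells were thinned to 5000 UMIs. Aldh1l1, a folate enzyme best known from astrocytes, had 65.7 CPM in casein-positive and 7.27 CPM in casein-zero cells, with a log2 ratio of -0.69 under the stricter gate.

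Endothelial markers were read in the same way. The 10 endothelial and mural genes summed to 162 CPM in casein-positive and 46.3 CPM in casein-zero cells, of which Ly6c1 made up 152 CPM in casein-positive and 18.2 CPM in casein-zero cells. The defining Cldn5, Pecam1, Flt1 and Kdr had 0 UMIs in casein-positive cells. The part of these markers in the results was not tested. WPRE, a viral element common in expression vectors and listed among the genes, had 475 CPM in casein-positive cells and 266 CPM in casein-zero cells, and 149 CPM in casein-zero microglia-like cells. H3f3a had 571 CPM in casein-positive and 710 CPM in casein-zero cells.

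The remaining lists had few members past 2-fold. Over all genes measured, 6.3% were at least 2-fold higher and 5.7% lower, so single members are not read as results about their lists. The 14 p53 target genes summed to 1051 CPM in casein-positive cells and 968 CPM in casein-zero cells. The cell cycle inhibitor Cdkn1a was higher, at 374 CPM in casein-positive and 150 CPM in casein-zero cells, and was the only 1 of 6 measured members past 2-fold. The 14 genes of the ATF4 stress response summed to 1056 CPM in casein-positive and 1114 CPM in casein-zero cells, with Phgdh, the first enzyme of serine synthesis, at 50.5 CPM in casein-positive and 117 CPM in casein-zero cells, and the receptor Vldlr, at 45.5 CPM in casein-positive and 103 CPM in casein-zero cells, the 2 members that were 2-fold lower. Of the 15 hypoxia and glycolysis genes, 5 were measured and 1 was higher, Adm (adrenomedullin), at 50.5 CPM in casein-positive and 18.2 CPM in casein-zero cells. The 8 Schwann cell and peripheral myelin genes summed to 399 CPM in casein-positive and 389 CPM in casein-zero cells, with 1 of 3 measured members at least 2-fold higher and a median log2 ratio of -0.07. This was Egr2, a transcription factor of myelination that is also an immediate early gene, at 141 CPM in casein-positive and 65.4 CPM in casein-zero cells. The polycomb and H3K27 genes summed to 177 CPM in casein-positive cells (123 to 246) and 344 CPM in casein-zero cells (310 to 381), and Kdm6b, an H3K27 demethylase, was the member measured, at 55.6 CPM in casein-positive and 155 CPM in casein-zero cells. The log2 ratio of the polycomb list was -0.92, against -0.26 without thinning and -0.04 under the stricter gate. T cell, erythroid and ependymal genes had no member that passed the filter.

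The classes with more casein UMIs were then set side by side. The 80 cells with 1 or 2 casein UMIs lay near the casein-zero cells in Apod, Ptgds and the interferon, MHC class I and compact myelin lists. The levels of Mgp and H19 were higher in them and that of Nov was lower. H19 had 58.3 CPM in cells with 1 or 2 casein UMIs and 21.8 CPM in casein-zero cells. In the former this came from 14 UMIs in 6.25% of cells, against 3.00% of casein-zero cells. Nov had 45.8 CPM in cells with 1 or 2 casein UMIs, from 11 UMIs. The share of cells with a Nov UMI was close, at 11.25% against 11.7% of casein-zero cells. Apod had 4309 CPM in cells with 0 casein UMIs, 4896 CPM in cells with 1 to 2, 16542 CPM in the 24 cells with 3 to 9 and 20254 CPM in the 42 cells with 10 or more. In the same order of classes, low to high, Spp1 had 147, 208, 278 and then 1825 CPM, so its higher level was mainly in the last class. Mgp had 344, 783, 2208 and then 1810 CPM. Ptgds had 2300, 1983, 333 and then 206 CPM. The difference in Apod and Ptgds thus lay mainly between 1 to 2 and 3 to 9 casein UMIs. Csn1s1 and Csn1s2a together had 3.63, 4.17, 111 and then 1532 CPM. These levels rest on few cells. The third class had 8 UMIs, in 8.33% of its 24 cells, and the last class 193 UMIs, in 38.1% of its 42 cells. A single cell of the last class held 95 UMIs of Csn1s2a. The interferon list had 4098, 3846, 8417 and then 10818 CPM, and the MHC class I list had 8794, 9288, 12694 and then 17413 CPM. The compact myelin list had 59464, 61992, 38903 and then 33833 CPM. The committed and newly formed list had 2561, 2704, 2472 and then 1405 CPM, so its lower level was mainly in the last class.

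**Figure D4:**
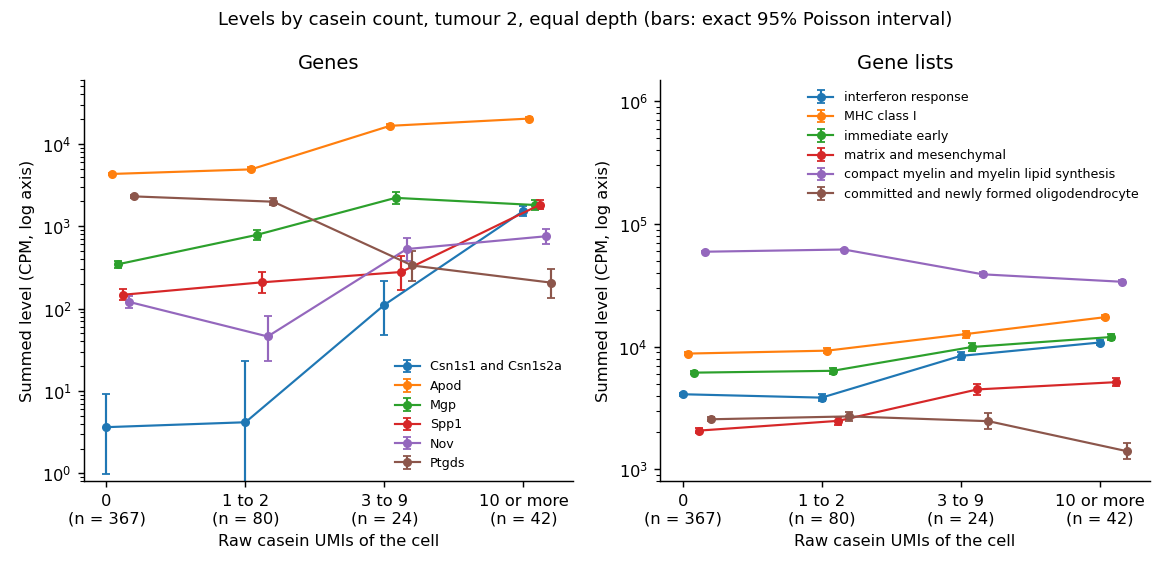
Summed level (CPM, log axis) of 6 genes (left) and 6 gene lists (right) in cells of tumour 2 grouped by raw casein UMIs (x axis, low to high), with exact 95% Poisson intervals. For Apod and Ptgds, cells with 1 to 2 casein UMIs lie near the casein-zero cells (Apod at 4896 CPM against 4309 CPM), while cells with 3 to 9 and with 10 or more lie apart (Apod at 16542 CPM and at 20254 CPM).

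The single casein-positive cell of tumour 4 is given by its values only. It held 17 casein UMIs among 10846 in total. At 3000 UMIs it had 0 UMIs of Apod and of Csn1s1 and Csn1s2a, and 14 UMIs of Ptgds. Its endothelial and mural list stood at 5333 CPM, against 106 CPM in the 457 casein-zero cells of that tumour. Its interferon list stood at 28333 CPM, against 10202 CPM in those casein-zero cells. No ratio is drawn from 1 cell.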

How the data were processed

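Whole-number UMI counts per gene and cell, deposited by the authors for each tumour, were made with Cell Ranger 1.3.0 and STAR 2.5.1 on mm10, per the submitters' processing notes. The authors' normalized tables were not used. Total UMIs were 47120617, 15231673 and 53551127 in tumours 1, 2 and 4. Pairs of libraries shared 6 to 20 barcode sequences.

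Counts were analysed in Python 3.11.15 (numpy 2.4.6, scipy 1.17.1). Csn2 and Csn3 were removed, each cell was thinned at random to 3000 UMIs (2 casein-positive and 6 casein-zero cells were shallower and left out), and UMIs were summed per class. Levels are CPM with exact Poisson 95% intervals, ratios carry exact conditional intervals, and called means 2-fold after adding 10 CPM. Cells are not replicates, so no test was run. Alternatives changed depth, casein and gate limits, filters, pseudocount and weighting. The procedure was tested on simulated counts. Genes named in the text are the 15 highest and 15 lowest ratios, and members of the lists. Members and lists were chosen with earlier results of these data known. Gene coordinates are from GENCODE M21. Some members of the myelin lists are not reported here by name.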

Additional observations from a re-analysis of the deposited data

Results flagged for a closer look

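Casein UMIs were also found outside the oligodendrocyte-like gate. In tumour 2, 21 microglia-like cells held 3 or more casein UMIs, and 14 of them also reached the oligodendrocyte gate of 10 per 10000. Their level of Apod was 8079 CPM, against 530 CPM in casein-zero microglia-like cells. A single cell held 202 of their 509 Apod UMIs, and the median was 7 per cell. In tumour 2, 18 other cells held 3 or more casein UMIs, with 944 CPM of Spp1 against 40.1 CPM in casein-zero cells of the same kind. Their Spp1 UMIs lay in 7 of the 18 cells, and a single cell held 29 of the 51. Csn1s1 and Csn1s2a together had 167 against 5.24 CPM, from 9 UMIs in 5 of the 18 cells. In tumour 4, 10 other cells held 3 or more, and in tumour 1, 3 of 3168 other cells did. These cells enter none of the comparisons, and whether they are doublets was not tested.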

How the results depend on the processing

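Against 231 higher and 209 lower genes, other settings gave these counts where they moved by more than 1.5-fold. With casein-positive cells called from 1 UMI there were 41 higher and 10 lower genes, with 6 lists at least 1.5-fold higher against 10 and 0 lower against 3. With classes called after thinning there were 151 and 123 genes, and 1 list was lower. With at least 100 UMIs over both classes there were 79 higher and 121 lower of 2078 genes measured, against 3665 measured in the main run. Without the CPM filter 471 of 7134 genes measured were lower. These counts are read beside the number of genes measured, which the limits themselves change. Without thinning there were 77 lower genes and 1 lower list, and with cells of 5000 to 15000 UMIs 447 lower genes. An oligodendrocyte gate of 30 and a myeloid gate of 5 left 9 casein-positive and 108 casein-zero cells. Under these gates 596 of 2691 genes measured were lower, and 7 lists were lower. The other settings whose gene counts are given here measured 3330 to 3822 genes. Of the alternatives chosen after seeing the data, weighting by mitochondrial share gave 129 and 114, and leaving out the cell with most UMIs of each gene in each class gave 141 and 332. The causes were not tested. Signs turned for the pituitary list (log2 0.64 at 5000 UMIs, 0.10 without thinning, 0.15 from 1 casein UMI), and under the stricter gate for the neuron list (-0.15), Nefl (-1.51) and Aldh1l1 (-0.69). The log2 ratio of the interferon list ran from 0.64 to 1.43, that of MHC class I from 0.47 to 0.92 and that of compact myelin from -0.84 to -0.25. No paired analysis was possible because only 1 tumour held at least 10 cells of both classes, so leaving out a tumour and a fit across tumours were not run.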
